A study of Mus musculus with 17 samples.

Results

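The sirtuins, Sirt1 to Sirt7, were followed through hippocampal RNA of mice at 3, 24 and 29 months of age. They were taken by gene symbol, and all 7 were found among the 38355 identifiers counted in these libraries. Sirtuins are enzymes that remove acetyl and other acyl groups from lysines of histones and other proteins and use up NAD+ in doing so, which ties their activity to the supply of that cofactor. SIRT1, SIRT6 and SIRT7 are found mainly in the nucleus, SIRT2 mainly in the cytosol, and SIRT3, SIRT4 and SIRT5 in mitochondria. In the brain SIRT1 is known from work on memory and synaptic plasticity, and SIRT2 is abundant in the myelin sheath of oligodendrocytes.

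The study asked how transcription in the hippocampus changes with age, and sequenced polyA-enriched RNA of hand-dissected hippocampi from untreated wild type C57BL/6J mice. Single-end libraries numbered 5 at 3 months (3M) and 6 at 24 months (24M). Paired-end libraries numbered 3 at 3 months and 3 at 29 months (29M). The 29M mice were bought at the age of the 24M mice and held in-house until they were used, and the sources used here do not give the sex of the mice. Each aged group was compared with the 3M mice sequenced in the same way, so that age in the aged groups varied together with library type, and the 2 cannot be told apart between 24M and 29M.

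Libraries held 9213474 to 28438296 counts on genes, with group medians of 20289215 for 3M single-end, 14363897 for 24M, 12061193 for 3M paired-end and 11701706 for 29M. Replicates 1 and 4 of 24M differed by less than the noise of sampling reads, and their mean was used as 1 sample, which left 16 samples and 5 at 24M. All 8 hippocampal and all 10 neuronal marker genes were detected in every group. Summed microglial markers, 8 genes, were at 380 to 445 CPM (counts scaled to the total of the library) in 3M single-end and 515 to 558 in 24M, and at 377 to 389 in 3M paired-end and 507 to 516 in 29M. Summed oligodendrocyte markers, 12 genes, overlapped between ages, with 4594 to 8008 CPM against 6636 to 7724 and 5102 to 7150 against 6376 to 7101. In RNA from whole tissue, fewer cells of a type and less RNA per cell cannot be told apart.

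No sirtuin differed between ages by the study's thresholds, which ask for an adjusted p up to 0.05 together with a log2 fold change of 0.5 or more in either direction. At 24M, 0 of 7 sirtuins were called, against 1.98% of the 15683 genes that entered the quasi-likelihood test of edgeR, adjusted after Benjamini and Hochberg. At 29M 0 of 7 were called, against 1.45% of 15097 genes. Without the fold change threshold the count of sirtuins stayed at 0 at both ages, against 5.58% and 2.99% of all genes. At an unadjusted p under 0.05, 2 sirtuins passed at 24M (Sirt1 and Sirt2) and 1 at 29M (Sirt4), against 26.1% and 17.3% of all genes. DESeq2, run on the same samples, called 0 sirtuins at either age, but let Sirt1 pass at 24M without the fold change threshold (adjusted p = 0.0309).

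The sizes of the differences were small. The median log2 fold change of the 7 genes was 0.0041 at 24M and -0.0038 at 29M, beside -0.0032 and -0.0021 over all genes tested. In absolute size the sirtuins had a median of 0.09 at 24M and 0.03 at 29M, beside 0.12 and 0.09 over all genes. The 95% confidence interval of the log2 fold change lay wholly inside the study's threshold of 0.5 in either direction for 6 sirtuins at 24M, all but Sirt1, and for all 7 at 29M. With values above 0 for 4 genes and below 0 for 3 at 24M, and for 3 and 4 at 29M, the family had no common direction.

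**Figure D1:**
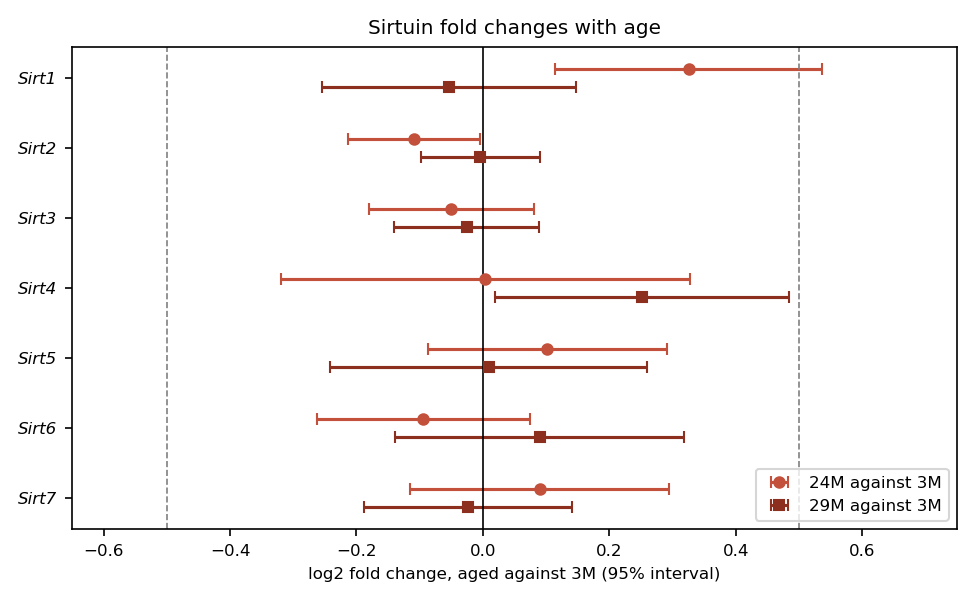
Log2 fold change of each sirtuin at 24M (n = 5 against 5) and 29M (n = 3 against 3) over the 3M group of the same library type, with 95% confidence intervals and lines at the study's fold change threshold. Sirt1 at 24M is the point farthest from 0, at 0.33, and no other interval reaches past the threshold.

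Sirt2, the mainly cytosolic deacetylase known for its action on tubulin, had the highest level of the family. CPM were divided by exon length (the union of a gene's annotated exons, in kb) to compare genes with each other, and by this measure Sirt2 stood at 27.5 ± 1.54 CPM per kb in 3M single-end (SD, n = 5), 25.4 ± 1.12 in 24M (n = 5), 25.8 ± 1.48 in 3M paired-end (n = 3) and 25.6 ± 1.76 in 29M (n = 3). Its mean share of the summed sirtuin level was 53.1%, 50.8%, 50.3% and 49.6% in the same order. This share depended on the length used, and per kb of the longest transcript it was 62.1%, 60.0%, 59.6% and 59.0%. Sirt3 came next in all 4 groups, with means of 8.65, 8.32, 8.88 and 8.68 CPM per kb. The ranges over samples of Sirt2, Sirt3 and the gene below them did not overlap in any group.

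The order below these 2 genes was less distinct. Sirt6, Sirt7, Sirt4 and Sirt1 had group means between 2.73 and 4.70 CPM per kb, and in 3M single-end and 24M the ranges of each of them overlapped with those of its neighbours in the order. In 3M paired-end, Sirt6 overlapped with Sirt4 and Sirt4 with Sirt7, while Sirt1 lay below Sirt7 in all 3 samples. In 29M, Sirt4 and Sirt6 overlapped at 4.70 ± 0.104 and 4.60 ± 0.287 CPM per kb, and both lay above Sirt7 and Sirt1. Sirt5 was the lowest in every group, at 1.52 to 1.63 CPM per kb, with ranges apart from those of the next gene. This last place depended on the length used: per kb of the longest transcript, Sirt1 came last in 3 groups and Sirt5 in 24M, while Sirt2 and Sirt3 stayed first and second in all 4 groups.

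**Figure D2:**
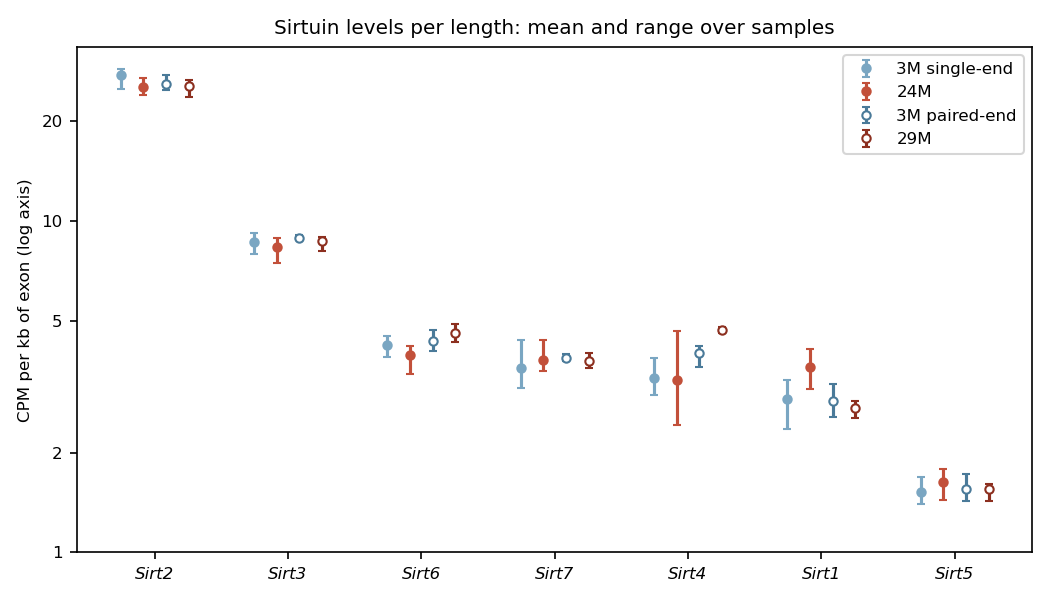
Level of each sirtuin in CPM per kb of exon (log axis) in the 4 groups, with points at the group means and bars from the lowest to the highest sample (n = 5, 5, 3 and 3). Sirt2 and Sirt3 stand apart at the top in all 4 groups, and Sirt6, Sirt7, Sirt4 and Sirt1 lie close together.

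Among the nuclear sirtuins, Sirt1 (ENSMUSG00000020063, chr10:63319005-63381704 on the minus strand of GRCm38) encodes the deacetylase of histones, p53 and FOXO factors. It had the largest log2 fold change of the family. The start that RefSeq gives it (GRCm38.p6) lies inside the longer gene model of GENCODE. The 235 bases before that start that hold no annotated exon are shown because Sirt1 was the sirtuin with the largest difference at 24M. They lie on the minus strand at chr10:63339051-63339285, and capitals mark matches on either strand to the GC box GGGCGG and the E-box CACGTG.
Sirt1: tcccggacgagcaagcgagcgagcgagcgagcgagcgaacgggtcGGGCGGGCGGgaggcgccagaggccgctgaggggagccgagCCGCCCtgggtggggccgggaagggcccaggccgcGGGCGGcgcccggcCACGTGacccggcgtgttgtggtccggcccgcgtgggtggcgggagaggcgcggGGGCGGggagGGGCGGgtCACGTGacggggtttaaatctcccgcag
The 250 bases before this start hold 6 GC boxes, neighbours that overlap counted apart, and 2 E-boxes at a GC content of 79.2%. Of 32851 RefSeq windows of that length, 32.7% hold a GC box and 6.02% an E-box. The same windows were searched on both strands for a CCAAT box (letters CCAAT), a site of ETS factors (letters CCGGAAG) and a TATA box (letters TATAAA), and the Sirt1 window matched none of these.

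Normalized counts of Sirt1 in the 3M single-end samples, replicates 1 to 5, were 12.5, 16.0, 14.8, 16.5 and 17.7 CPM. At 24M they were 18.6 in the mean of replicates 1 and 4, and 20.2, 20.1, 16.7 and 21.7 CPM in replicates 2, 3, 5 and 6. Of the 5 aged samples 4 lay above all 3M samples, and replicate 5 lay among them, so that the groups overlapped. No sirtuin had groups without overlap at 24M, which 6.57% of all genes tested had. The means were 15.5 ± 1.97 CPM at 3M and 19.4 ± 1.91 at 24M (SD, n = 5 each), a log2 fold change of 0.33 ± 0.10 (SE) with a 95% confidence interval from 0.11 to 0.54. This difference did not pass edgeR's quasi-likelihood test (adjusted p = 0.0647 over all genes, by Benjamini and Hochberg). It passed without the fold change threshold when 1 of 2 libraries was left out, 3M single-end replicate 5 (0.37, adjusted p = 0.024) or 24M replicate 5 (0.37, adjusted p = 0.0464). It also passed with all 4 groups in 1 fit (adjusted p = 0.0244) and with the 6 libraries of 24M kept apart (adjusted p = 0.0414). The latter counts replicates 1 and 4 as separate samples, although they differed by less than the noise of sampling reads. Together with DESeq2, these were the 5 of 19 alternatives under which Sirt1 passed. It did not pass without 3M single-end replicate 1 (0.26, adjusted p = 0.13). Nor did it pass with 24M replicates 1 and 4 both left out (0.34, adjusted p = 0.11).

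At 29M Sirt1 showed no such difference. The 3M paired-end samples were at 14.0, 14.8 and 16.9 CPM and the 29M samples at 14.6, 14.2 and 15.0 CPM, all within the range of the 3M samples. The log2 fold change was -0.05 ± 0.09 (SE), with an interval from -0.25 to 0.15 and an adjusted p of 0.817 in edgeR's quasi-likelihood test. The 29M effect was lower than the 24M effect by a log2 difference of -0.38 ± 0.15 (SE; interval -0.71 to -0.06). In edgeR's test of this contrast over 16055 genes it did not pass (adjusted p = 0.406). None of these genes passed there (0%), and 10.4% of them, Sirt1 included, had an unadjusted p under 0.05.

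Sirt6 (ENSMUSG00000034748, chr10:81621785-81627797, minus strand), whose product acts at telomeres and in DNA repair, differed little between ages. Its samples were at 12.05, 11.7, 11.5, 12.5 and 10.9 CPM in 3M single-end and at 11.3, 9.64, 11.6, 10.7 and 11.6 CPM in 24M. In 3M paired-end they were at 13.3, 11.8 and 11.1 CPM, and in 29M at 11.9, 14.3 and 12.6 CPM. The groups overlapped in both comparisons, with 2 samples of 24M below all 3M samples and 1 sample of 29M above them. Its log2 fold changes of -0.09 ± 0.08 at 24M (interval -0.26 to 0.07) and 0.09 ± 0.11 at 29M (interval -0.14 to 0.32) did not pass edgeR's quasi-likelihood test (adjusted p = 0.471 and 0.722).

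Sirt7 (ENSMUSG00000025138, chr11:120618372-120625240, minus strand) encodes the sirtuin of the nucleolus, which acts in transcription of ribosomal RNA genes. It was measured at 22.5, 18.0, 18.5, 17.3 and 16.2 CPM in 3M single-end and at 18.1, 19.6, 22.9, 18.8 and 18.8 CPM in 24M. The paired-end samples were at 20.0, 20.2 and 19.2 CPM at 3M and at 20.2, 20.2 and 18.2 CPM at 29M. In both single-end groups 1 sample stood above the rest of its group, replicate 1 at 3M and replicate 3 at 24M, and the ages overlapped in both comparisons. Its log2 fold changes of 0.09 ± 0.10 at 24M (interval -0.11 to 0.29) and -0.02 ± 0.08 at 29M (interval -0.19 to 0.14) did not pass (adjusted p = 0.58 and 0.91 by edgeR's quasi-likelihood test).

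The cytosolic Sirt2 (ENSMUSG00000015149, chr7:28766735-28788661, plus strand) was the most deeply counted sirtuin, with 1254 to 3589 counts per library. Its 3M single-end samples were at 145, 135, 127, 142 and 144 CPM, and the 24M samples at 125, 128, 123, 130 and 135 CPM. The groups overlapped, with 2 samples of 24M below all 3M samples. The mean was 138 ± 7.48 CPM at 3M and 128 ± 4.62 at 24M, a log2 fold change of -0.11 ± 0.05 (interval -0.21 to -0.0045) that did not pass edgeR's quasi-likelihood test (adjusted p = 0.174). At 29M the samples were at 132, 124 and 133 CPM against 128, 137 and 125 CPM at 3M. These means lay at 129 and 130 CPM, with a log2 fold change of -0.0038 ± 0.04 and the narrowest interval of the family, -0.10 to 0.09 (adjusted p = 0.978). Of the 12 oligodendrocyte markers 1 was called higher at 24M, against 1.98% of all genes called in either direction. At 29M none was called, against 1.34% of all genes called higher, but 2 (Ermn and Gjb1) passed as higher without the fold change threshold, against 2.32%. The medians of the 12 were 0.16 and 0.22 on the log2 scale. All 12 were detected in every group, and their part in the Sirt2 values was not tested.

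The mitochondrial sirtuins begin with Sirt3 (ENSMUSG00000025486, chr7:140863666-140882309, minus strand), the main deacetylase of mitochondrial enzymes. In 3M single-end it was at 54.7, 48.5, 53.4, 53.8 and 47.5 CPM, and in 24M at 49.2, 52.1, 45.4, 53.3 and 49.2 CPM. The paired-end values were 53.7, 53.4 and 51.8 CPM at 3M and 52.7, 50.8 and 52.5 CPM at 29M. Samples of the ages were mixed in both comparisons. Its log2 fold changes of -0.05 ± 0.06 at 24M (interval -0.18 to 0.08) and -0.03 ± 0.05 at 29M (interval -0.14 to 0.09) gave adjusted p-values of 0.635 and 0.853 in edgeR's quasi-likelihood test.

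Sirt4 (ENSMUSG00000029524, chr5:115478010-115484725, minus strand), known as an inhibitor of glutamate dehydrogenase, was the only sirtuin with groups that did not overlap. The 29M samples were at 11.3, 11.9 and 10.8 CPM, all above the 3M paired-end samples at 10.3, 8.57 and 9.80 CPM. Groups of 3 against 3 did not overlap in 22.4% of all genes tested at 29M. The means were 11.3 ± 0.534 and 9.55 ± 0.877 CPM (SD, n = 3 each), a log2 fold change of 0.25 ± 0.11 with an interval from 0.02 to 0.48, which did not pass edgeR's quasi-likelihood test (adjusted p = 0.249). In the single-end libraries Sirt4 was at 9.23, 8.26, 7.17, 8.36 and 7.31 CPM at 3M and at 8.20, 5.84, 11.3, 7.52 and 6.99 CPM at 24M. Here 1 sample of 24M, replicate 3, lay above all 3M samples and 2 lay below all of them. The log2 fold change at 24M was 0.0041 ± 0.15 (interval -0.32 to 0.33, adjusted p = 0.99), and -0.18 without replicate 3 (adjusted p = 0.413). The 29M effect exceeded that at 24M by 0.24 ± 0.22 on the log2 scale, which did not pass (adjusted p = 0.726).

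In 3 of the 4 groups, Sirt4 and Sirt6 were highest in the same library. In each of these groups that library also had the highest share of reads without a feature, out of these and the reads in genes. The share was 17.6% in 24M (replicate 3), 18.4% in 29M (replicate 2) and 14.8% in 3M paired-end (replicate 1). Sirt6 in 24M was nearly tied, at 11.65 CPM in replicate 3 and 11.61 CPM in replicate 6. Both paired-end groups had only 3 samples. In 3M single-end, replicate 5 had the highest share at 14.0%, but the second lowest Sirt4 value and the lowest Sirt6 value. The values below the top did not follow the share in 24M either, where replicate 2, with the lowest Sirt4 and Sirt6 values, had a share of 14.1%, above those of replicates 5 (13.4%) and 6 (13.6%). The part of this share in the Sirt4 and Sirt6 values was not tested. With 65 to 220 counts per library, the counting error alone of Sirt4 had a coefficient of variation of 6.74% to 12.4%, and the samples of a group varied by 4.71% in 29M to 25.9% in 24M.

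Sirt5 (ENSMUSG00000054021, chr13:43365496-43395203, plus strand) encodes the sirtuin that removes succinyl, malonyl and glutaryl groups in mitochondria. The 211 bases before its RefSeq start without an annotated exon, chr13:43365285-43365495 on the plus strand of GRCm38.p6, are shown for contrast with Sirt1, because Sirt5 had the lowest level per kb of exon. Per kb of the longest transcript Sirt1, not Sirt5, came last in all groups but 24M. Capitals mark a match to the CCAAT box.
Sirt5: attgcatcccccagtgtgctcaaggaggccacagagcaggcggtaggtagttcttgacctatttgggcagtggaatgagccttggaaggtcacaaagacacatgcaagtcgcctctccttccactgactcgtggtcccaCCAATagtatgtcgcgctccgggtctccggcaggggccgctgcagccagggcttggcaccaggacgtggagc
The 250 bases before this start had a GC content of 62.8% and held 1 CCAAT box, found in 33.8% of all windows, and 1 GC box outside the stretch shown. None of the other motifs matched.

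In 3M single-end Sirt5 was at 10.2, 8.47, 9.36, 9.37 and 8.94 CPM and in 24M at 8.76, 10.9, 9.79, 10.8 and 9.46 CPM. The paired-end samples were at 8.91, 9.03 and 10.3 CPM at 3M and at 9.67, 10.3 and 8.57 CPM at 29M. Although 2 samples of 24M lay above all 3M samples, the groups overlapped at both ages. Its log2 fold changes, 0.10 ± 0.09 at 24M (interval -0.09 to 0.29, adjusted p = 0.489) and 0.0094 ± 0.12 at 29M (interval -0.24 to 0.26, adjusted p = 0.98), did not pass edgeR's quasi-likelihood test.

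**Figure D3:**
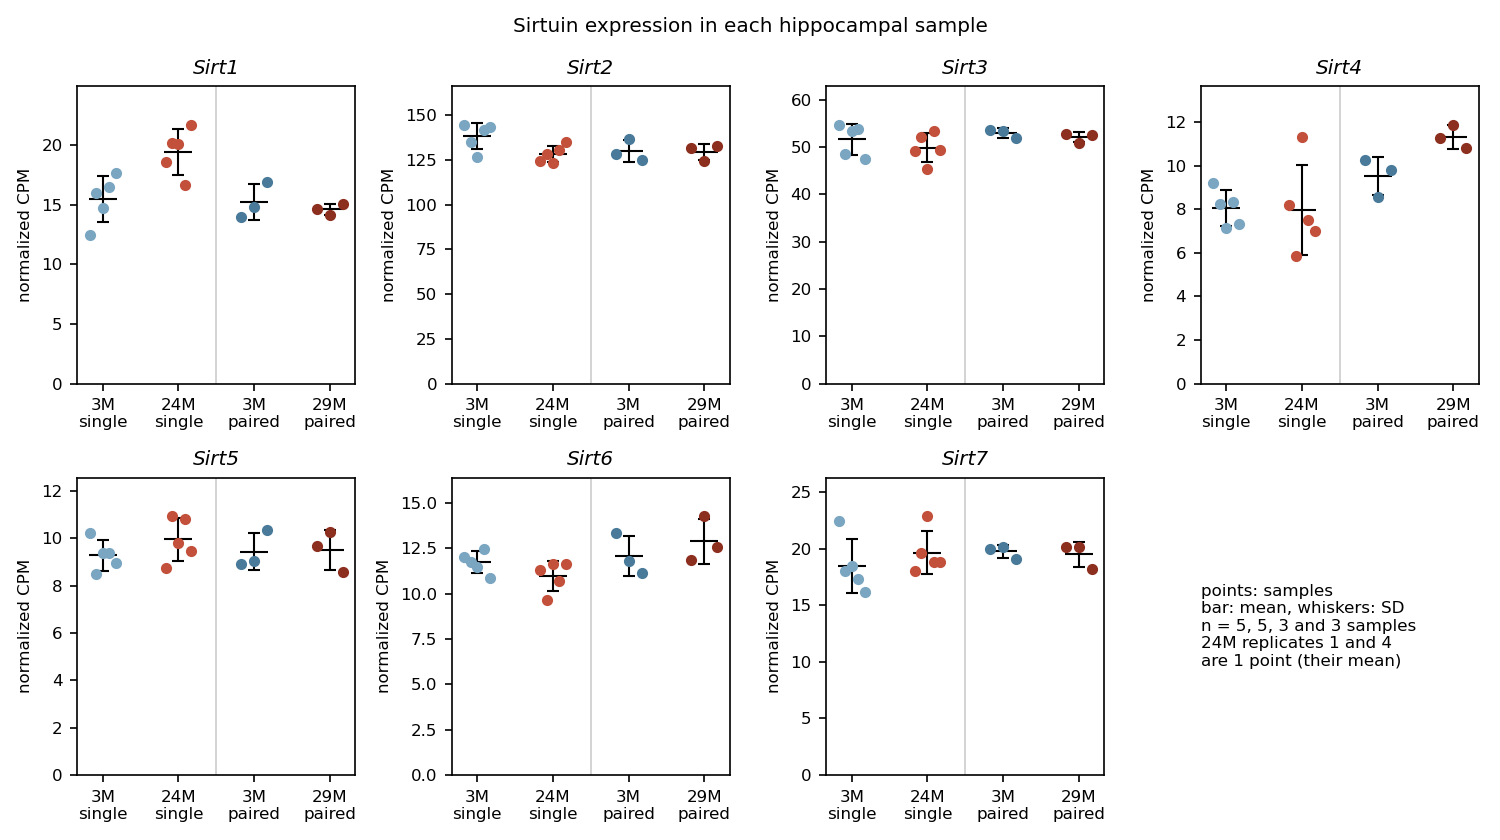
Normalized CPM of each sirtuin in every sample, 1 panel per gene, with a line at each group mean and whiskers of 1 SD (n = 5, 5, 3 and 3 samples). For Sirt1, 4 of 5 samples of 24M lie above all 3M single-end samples, and for Sirt4 all 3 samples of 29M lie above the 3M paired-end samples; the other groups overlap within each library type.

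The difference between the 29M and the 24M effect did not pass for the remaining genes either. On the log2 scale it was 0.10 for Sirt2, 0.02 for Sirt3, -0.10 for Sirt5, 0.18 for Sirt6 and -0.12 for Sirt7, with adjusted p-values from 0.628 to 0.957 in edgeR's test.

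Several sirtuin genes overlap or adjoin other genes, and with a library kit that does not mark strand, reads from exons shared by opposite strands cannot be told apart. Sirt3 shares 342 exon bases with Psmd13, which encodes a proteasome subunit, and 418 with Ric8a, both on the opposite strand. Sirt2 shares 42 exon bases with Nfkbib on the opposite strand, Sirt7 shares 124 with Mafg on its own strand, and Sirt1 shares 65 with the antisense gene Gm16145, which had 5 counts over all libraries. The starts of Dnajc12 and of the GENCODE model of Sirt1 lie 739 bases apart on opposite strands, and those of Ankrd24 and Sirt6 lie 743 bases apart. Gm16145 did not enter edgeR's quasi-likelihood test, and none of the other neighbours passed it. Their log2 fold changes lay between -0.11 (Ric8a) and 0.10 (Dnajc12) at 24M and between -0.04 (Dnajc12) and 0.11 (Nfkbib) at 29M. How far shared reads moved the sirtuin values was not tested.

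To find the genes with the most similar profile, for each gene the log2 CPM was centred on the 3M mean of its library type, and Pearson's r over the 16 samples was taken between each sirtuin and 14897 genes, as a description. All points of a gene pair come from the same libraries and share their depth. The highest r for Sirt1 was that of Ubxn7 (0.965), followed by Tcea1 (0.946) and Cmpk1 (0.944). Sirt2 was closest to Gprc5b (0.906), Unc5b (0.898) and Whrn (0.891), and Sirt3 to Adprh (0.917) and Mrps12 (0.889), a protein of the mitochondrial ribosome. Sirt4 was closest to Sf1 (0.942) and Ewsr1 (0.92), which encode RNA-binding proteins, and to the amino acid transporter gene Slc7a6 (0.941). The values were lower for Sirt5, with Dync2li1 at 0.80, Crtap at 0.702 and Eef1a1 at 0.697. Sirt6 was closest to Ict1os (0.853), Zscan22 (0.846) and Inpp4a (0.838), and Sirt7 to Nxf1 (0.902) and Ccdc84 (0.819). For Ccdc84 r with Sirt7 was -0.30 within the paired-end samples, so that this value rests on the single-end samples. For the other pairs named, r within the paired-end samples lay between 0.32 (Eef1a1 with Sirt5) and 0.95 (Gprc5b with Sirt2).

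The genes around the sirtuins were read from 7 lists with 118 genes. Nampt, the rate-limiting enzyme of NAD+ salvage from nicotinamide, was at 69.4 ± 3.76 CPM at 3M and 86.1 ± 5.46 at 24M (SD, n = 5 each) with no overlap. It rose by 0.31 ± 0.06 on the log2 scale (adjusted p = 0.012, edgeR's quasi-likelihood test). This passed under 18 of 19 alternative settings. At 29M it was at 70.9 ± 1.13 CPM against 68.5 ± 4.23, and the log2 fold change there was 0.05 (adjusted p = 0.687). Nadk2, the mitochondrial NAD kinase, also rose at 24M (0.33 ± 0.08, adjusted p = 0.0371), which passed under 10 of 19 alternatives. It no longer passed on leaving out any of replicates 1 to 4 of 3M single-end or of replicates 2, 3 and 6 of 24M. At 29M it stood at a log2 fold change of 0.03. These 2 were the genes of 16 tested for NAD synthesis and salvage that passed at 24M, both below the fold change threshold, against 3.21% of all genes that passed in this direction. None of 16 passed at 29M, against 2.99% of all genes tested. The smallest p-values there were those of Nadsyn1, Tdo2 and Ido2.

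Among 16 other NAD-consuming enzymes tested, 2 were called at 29M, both higher. Over all genes 1.34% were called higher at 29M. These enzymes were Parp12 (12.2 ± 1.88 against 17.2 ± 1.81 CPM, log2 fold change 0.51 ± 0.12, adjusted p = 0.0321) and Parp14 (4.25 ± 0.303 against 7.77 ± 2.50 CPM, 0.90 ± 0.21, adjusted p = 0.0391), both mono-ADP-ribosyltransferases that interferon induces. Neither passed edgeR's quasi-likelihood test with all 4 groups in 1 fit, and the largest adjusted p over 12 alternatives was 0.194 for Parp12 and 0.216 for Parp14. Both calls were lost without replicate 1 or 2 of 3M paired-end or replicate 1 or 3 of 29M, and that of Parp14 also without replicate 3 of 3M paired-end. For Parp9 the value at 29M was 0.75 on the log2 scale (adjusted p = 0.067). At 24M these genes stood at 0.36 (Parp12), 0.57 (Parp14) and 0.50 (Parp9) and did not pass, with adjusted p-values of 0.0699, 0.0928 and 0.0564. At 24M Parp6 fell by 0.18 on the log2 scale, the direction in which 2.37% of all genes passed (adjusted p = 0.0487). It passed under 7 of 19 alternatives, and no longer on leaving out any of replicates 1 to 4 of 3M single-end or of replicates 1, 2, 5 and 6 of 24M. For Parp1, the main consumer of NAD+ after DNA damage, the log2 fold change was 0.0034 at 24M and -0.0069 at 29M, and for Cd38, an NAD+ glycohydrolase, -0.09 and -0.42 (adjusted p = 0.12 at 29M).

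The substrates of nuclear and cytosolic sirtuins held 3 genes of 28 that passed at 24M, all below the fold change threshold, while 5.58% of all genes tested passed there. Arntl, the clock activator also known as Bmal1, fell by 0.45 on the log2 scale, from 41.0 ± 1.20 to 30.1 ± 2.69 CPM (adjusted p = 0.00237, edgeR's quasi-likelihood test), and passed under all 19 alternatives. The clock repressor Per2 rose from 26.3 ± 4.48 to 35.8 ± 3.14 CPM, by 0.44 (adjusted p = 0.0342). It passed under 11 of 19 alternatives, and no longer on leaving out replicate 1 or 4 of 3M single-end or any of replicates 2, 3, 5 and 6 of 24M. Ppargc1a, the coactivator of mitochondrial biogenesis that SIRT1 deacetylates, rose by 0.21 (adjusted p = 0.0469) and passed under 8 of 19 alternatives, and no longer on leaving out any of replicates 1 to 4 of 3M single-end or of replicates 1, 2, 3 and 6 of 24M. At 29M none of the 28 passed, against 2.99% of all genes tested. Arntl, Per2 and Ppargc1a had log2 fold changes of -0.00063, 0.07 and -0.06 there. The 3M mean of Arntl was 41.0 CPM in single-end and 27.7 ± 1.55 CPM in paired-end libraries, and that of Per2 was 26.3 and 33.8 ± 2.91 CPM. Each was scaled within its own comparison, and these differences between library types were not tested. The smallest p-values at 29M were those of Acss2 (-0.21, adjusted p = 0.0508), Ep300 (-0.08) and Fzr1 (0.10).

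In the other lists few genes passed, beside 5.58% at 24M and 2.99% at 29M of all genes tested. None of the 6 regulators of sirtuins passed at either age, Ccar2, an inhibitor of SIRT1, among them (-0.12 at 24M and -0.08 at 29M, adjusted p = 0.151 and 0.347). The other regulators with the smallest p-values were Usp22 (-0.10) and Elavl1 (0.13) at 24M and Rps19bp1 (-0.19) and Usp22 (-0.06) at 29M. Mitochondrial substrates numbered 26 tested at 24M and 25 at 29M, and none passed. Among those with the smallest p-values were Dlat (0.13) and Shmt2 (-0.23) at 24M, with adjusted p-values of 0.0923 and 0.11. At 29M they included Ndufa9 (-0.11) and Acss1 (-0.17), with adjusted p-values of 0.188 and 0.189. Of 9 regulators of mitochondrial biogenesis only Ppargc1a, shared with the substrates, passed at 24M, where 3.21% of all genes passed as higher, with Gabpa (0.22) and Tfam (0.09) next. None of the 9 passed at 29M, where Gabpa (-0.16) and Tfb2m (-0.15) came first.

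The zinc-dependent histone deacetylases, 11 genes that share the reaction but not the cofactor with the sirtuins, had 1 gene that passed, Hdac7 at 29M, where 2.32% of all genes passed as higher. It rose from 18.9 ± 1.58 to 26.7 ± 0.150 CPM, by 0.49 ± 0.08 on the log2 scale (adjusted p = 0.003, edgeR's quasi-likelihood test), just below the fold change threshold, and passed under 11 of 12 alternatives, not with all 4 groups in 1 fit. At 24M its log2 fold change was -0.07 (adjusted p = 0.684). The smallest p-values besides it were those of Hdac5 (-0.16), Hdac4 (-0.16) and Hdac6 (-0.17) at 24M and of Hdac9 (-0.15) and Hdac2 (-0.12) at 29M. The medians of the 7 lists lay between -0.11 (sirtuin regulators) and 0.08 (both NAD lists) at 24M and between -0.03 and 0.02 at 29M.

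**Figure D4:**
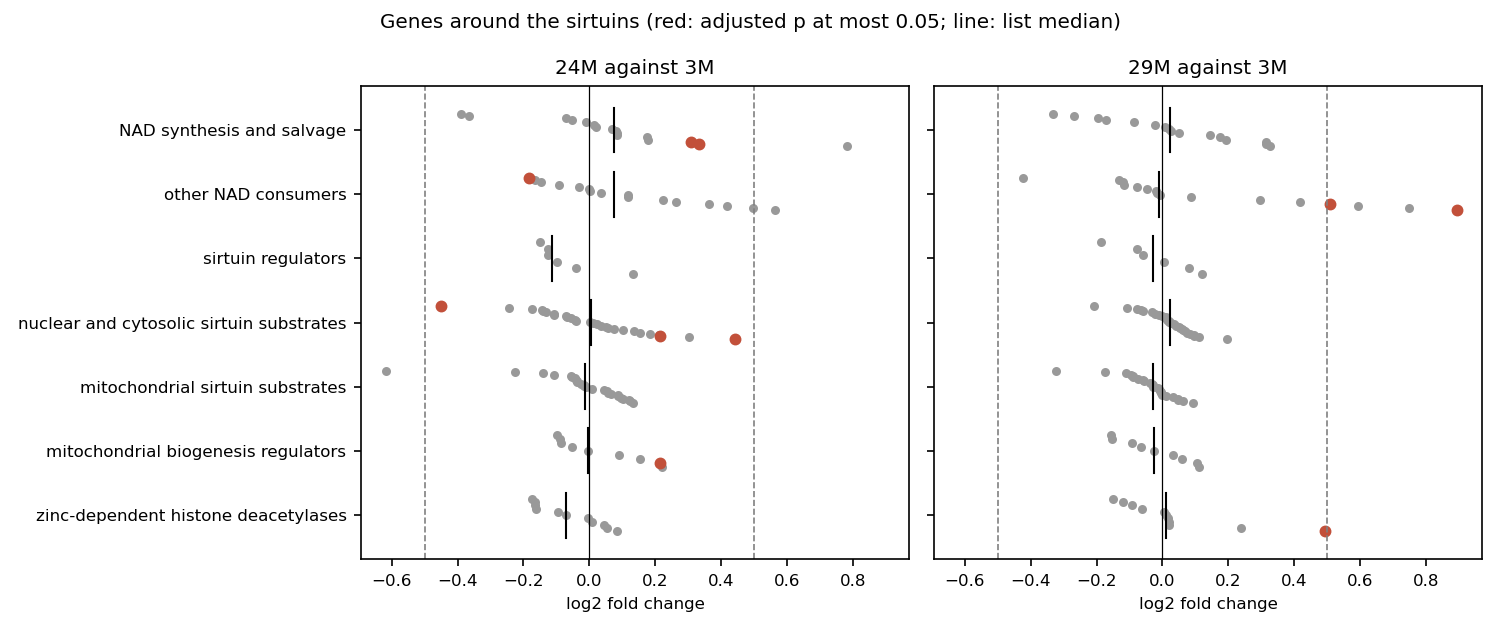
Log2 fold changes of the tested genes of each pathway list at 24M and 29M, with 1 point per gene, a line at each list's median, red points for genes with an adjusted p of at most 0.05 and dashed lines at the fold change threshold. The list medians lie between -0.11 and 0.08, and the 2 red points past the threshold are Parp12 and Parp14 at 29M.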

How the data were processed

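Hippocampal RNA was sequenced in 17 libraries of mice aged 3, 24 and 29 months. Per the labels and the study's methods, the authors used STAR 2.3.0 for alignment to GRCm38.p2, counted the reads per gene with HTSeq in its intersection-nonempty mode and deposited raw counts. The annotation and the strand setting of the counting are not given in the sources used here. Rows without a gene were left out (reads without a feature were 11.4% to 18.4% of these and the reads in genes). GENCODE M21 named 36602 of the 38355 identifiers and gave exon lengths.

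Libraries were compared in 136 pairs. For genes with 20 to 99 counts, the squared difference over its binomial variance was 0.406 for 24M replicates 1 and 4 and at least 1.23 for the other pairs, so the rounded mean of that pair was used as 1 sample.

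Counts were tested with edgeR 4.0.16 in R 4.3.3 (quasi-likelihood, TMM, default filter), with Benjamini-Hochberg adjustment over all genes tested, separately at 24M and 29M, as the study did with DESeq2. The difference between the ages was a contrast over all 4 groups. CPM were scaled by TMM within a comparison, and levels per kb used total counts on genes. The standard error was the size of a log2 fold change over the root of its F statistic. P-values weigh a difference between groups against the variation between these samples. The scripts were tested on simulated data. Alternatives were DESeq2 1.42.0, its size factors, no filter (at least 1 count), at least 1 CPM, all 4 groups in 1 fit, a replicate block, the 24M pair kept apart or left out, each library left out, and the longest transcript as length.

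The sirtuins and lists were chosen with earlier results of these data known. The text names all sirtuins, the called genes of each pathway list or else the 3 with the smallest p, the 3 genes most like each sirtuin, and genes that overlap a sirtuin gene or start within 1000 bases of its start. Parp1, Cd38 and values at the other age were added after they were seen. The results of some single genes that this rule names are not reported here. Counting error alone gave a coefficient of variation of 1.67% to 12.4% for the sirtuins.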

Additional observations from a re-analysis of the deposited data

Results flagged for a closer look

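Sirtuin values and marker sums were checked for a far sample in 34 groups, all from 3M single-end and 24M. The paired-end groups, with 3 samples each, were not checked. The gap of the highest or lowest sample to the next was divided by the range of its group. This ratio was compared with Dixon's 95% critical value. By chance about 1 in 20 groups exceeds it, here 1.7, and 3 did, none of them a group of sirtuin values. The summed hippocampal markers of 24M replicate 3 stood above the other 24M samples with a gap of 0.795 of the range (1410 CPM, in a group with a median of 1134 CPM). This is the sample with the highest Sirt4, Sirt6 and Sirt7 values at 24M. The summed striatal markers of 3M single-end replicate 4 stood apart by 0.767 of the range (395 CPM, median 135 CPM), and the summed blood markers of 24M replicate 2 by 0.822 (544 CPM, median 135 CPM). The part of these sums in the sirtuin values was not tested; without each of these 3 libraries in turn, 0 sirtuins passed at 24M with or without the fold change threshold.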

How the results depend on the processing

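The count of sirtuins called was 0 at both ages under every alternative that was run. The count of sirtuins whose effect differed between ages was 0 as well, but DESeq2 gave no adjusted p there for most sirtuins. Without the fold change threshold, 1 sirtuin (Sirt1) passed at 24M with DESeq2, with all 4 groups in 1 fit and with the 24M libraries kept apart, and 0 to 1 passed when single libraries were left out. Of 364 values of single sirtuins under alternatives, 358 kept their direction or moved by less than their error and stayed on their side of the threshold, 5 were Sirt1 at 24M passing, and 1 was Sirt4 at 24M, which moved to -0.18 without replicate 3. Sirt1 at 24M ranged from 0.26 to 0.37. The pathway genes called at 24M numbered 0, but 2 with DESeq2, Parp14 among them, and 1 with no filter, with the 24M libraries kept apart and with all 4 groups in 1 fit. Leaving out single libraries gave 0 to 2, with Parp9 called without 3M single-end replicate 2 or 5. At 29M the 2 called pathway genes became 0 with all 4 groups in 1 fit and 0 to 4 with single libraries left out. Per kb of the longest transcript, 3 of 7 sirtuins kept their place in the level order at 24M, in 3M paired-end and in 29M, and 5 of 7 in 3M single-end. The causes were not tested, except that a longest transcript changes only the length.

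Replicate numbers are shared by the groups, but same-numbered samples did not deviate together (correlations of -0.137 to 0.0535 at 24M and -0.069 to 0.0965 at 29M), so the numbers were not treated as pairs. With the replicate block, 0 sirtuins were called at either age, Sirt1 at 24M stood at 0.32 (adjusted p = 0.24), and Nampt (adjusted p = 0.154), Nadk2 (0.163), Parp6 (0.244), Per2 (0.133) and Ppargc1a (0.241) no longer passed at 24M, while Arntl did (0.0282). At 29M the block moved Parp12 just below the fold change threshold (0.49, adjusted p = 0.0134) and Parp9 past both thresholds (0.70, adjusted p = 0.0374), and the count of pathway genes called stayed at 2.

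At 65 to 418 counts per library, Sirt1, Sirt4, Sirt5 and Sirt6 were the least deeply counted sirtuins, and their intervals, not the threshold, say how large a difference the data allow. DESeq2 gave no adjusted p for 6 sirtuins in the difference between ages, and these were counted as not passing in the tallies above.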
